A study of Mus musculus with 6 samples.

Results

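The AP-1 genes examined here were Fos, Fosb, Fosl1, Fosl2, Jun, Junb, Jund and Atf3, chosen by name with earlier results of these data known. All 8 were found among the 27179 Entrez genes of the table, through the RefSeq symbols of the mouse genome. RNA came from lenses of mice of strain B6/FVB on postnatal day 1, labelled Gclc KO (libraries KO 1, KO 2 and KO 3) or Gclc CON (CON 1, CON 2 and CON 3). The product of Gclc carries out the first step of glutathione synthesis, and the comparison asked which transcripts differ when that step is impaired in the lens. The labels name no Cre driver, altered exon, control allele, sex or litter, and do not say whether lenses were pooled or libraries came from separate animals, so the spread behind every p-value is that between 6 libraries and may be technical.

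AP-1 is a dimer of basic leucine zipper proteins that binds DNA. Fos proteins need a Jun partner, whereas Jun proteins and ATF3 can also pair with themselves. Fos, Fosb, Jun, Junb and Atf3 are immediate early genes, whose transcription is switched on within minutes by growth factors, stress or injury through MAP kinases, serum response factor (SRF) and CREB, while Jund is made more steadily in many tissues. In the lens, growth factor signalling through ERK controls proliferation of the epithelium and differentiation of fibre cells, and AP-1 sites take part in the control of some crystallin genes.

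Libraries held from 45842484 to 61219009 reads in genes in KO and from 20361430 (CON 2) to 43384443 in CON. Crystallins, the main proteins of the lens, took from 40.5% to 47.5% of these reads in KO and from 59.5% to 68.4% in CON. The 13 lens fibre markers summed to between 346686 and 481000 normalised reads in KO and between 931972 and 1129866 in CON, so lens transcripts dominated both groups. Normalised reads are reads recovered from the deposited log2 values and divided by the size factor of the library, and values per library are given in the order of the library numbers. Gclc itself had 17.9, 72.1 and 58.1 normalised reads in KO, against 178, 283 and 173 in CON. It was lower in every KO library than in any CON library (log2 difference -1.01, SE 0.28, limma adjusted p = 0.0387), and the call was lost without KO 1, KO 2, KO 3 or CON 2 (adjusted p up to 0.130). In bulk RNA, fewer cells of a type and less RNA per cell cannot be told apart.

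The stretches before the transcription starts of 4 members that were higher in every KO library than in any CON library are shown because they share a short motif. They are the 250 bases before the RefSeq start (GRCm38.p6), read 5′ to 3′, with TGACG or its reverse complement in capitals. TGACG is the core of the cAMP response element that CREB and ATF proteins bind.

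Fos (chr12:85473640-85473889, plus strand): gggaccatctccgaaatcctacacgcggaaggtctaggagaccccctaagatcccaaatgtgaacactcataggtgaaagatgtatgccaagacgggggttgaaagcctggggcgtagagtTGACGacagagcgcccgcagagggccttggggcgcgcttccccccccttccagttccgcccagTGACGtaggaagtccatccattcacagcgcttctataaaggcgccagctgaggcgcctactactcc
Fosb (chr7:19310046-19310295, minus strand): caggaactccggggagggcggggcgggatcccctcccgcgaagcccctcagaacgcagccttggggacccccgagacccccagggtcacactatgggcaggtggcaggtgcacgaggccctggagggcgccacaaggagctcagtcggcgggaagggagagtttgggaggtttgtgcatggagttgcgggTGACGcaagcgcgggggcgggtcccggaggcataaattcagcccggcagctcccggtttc
Junb (chr8:84978749-84978998, minus strand): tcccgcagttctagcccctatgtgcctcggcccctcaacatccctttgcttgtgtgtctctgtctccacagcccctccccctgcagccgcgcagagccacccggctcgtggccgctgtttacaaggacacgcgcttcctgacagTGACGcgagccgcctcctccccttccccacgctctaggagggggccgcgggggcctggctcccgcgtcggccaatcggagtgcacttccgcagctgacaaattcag
Atf3 (chr1:191183334-191183583, minus strand): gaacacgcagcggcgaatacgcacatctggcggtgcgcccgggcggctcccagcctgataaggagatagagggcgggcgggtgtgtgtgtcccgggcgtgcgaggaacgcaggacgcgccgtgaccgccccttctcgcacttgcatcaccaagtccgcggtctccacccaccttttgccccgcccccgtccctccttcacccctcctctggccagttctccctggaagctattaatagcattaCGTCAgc

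Among the 7 members with a window, TGACG on either strand occurred in these 4, and in 17.8% of all 32851 windows of the same length. It was absent from the windows of Jun, Jund and Fosl2, although Fosl2 was also higher in every KO library. Fos held it at positions -129 to -125 and -66 to -62 from the start, Fosb at -60 to -56, Junb at -106 to -102 and Atf3 at -7 to -3, the last on the opposite strand. The whole element TGACGTCA (1.55% of windows), the AP-1 site TGANTCA (6.75%) and the CArG box bound by SRF (1.47%) were not found in any of the 7 windows. Variants of these motifs with other letters and sequence farther from the start were not searched. GENCODE lists other starts inside or before the window, 2 each for Fosb and Atf3 and 1 for Fosl2. The Jund window ends at base 70697738, ahead of the GENCODE start of Jund at 70698949, so it does not cover the sequence next to that start. These matches describe the letters only, and the motifs were chosen after the sequences and the expression values had been seen.

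Transcripts of Fos, Junb and Atf3 rose in KO lenses, and those of Fosb, Fosl1 and Fosl2 were read in every KO library and in no CON library. Jun and Jund overlapped between the groups and did not pass the test. With limma on the deposited log2 values, 5 members could be tested, since the other 3 had too few reads for the filter (a mean at least 1 log2 unit above that of a gene without reads). Of these 5, 3 were higher and 0 lower at an adjusted p under 0.05, beside 6.91% of all 11468 tested genes higher and 4.39% lower. At an unadjusted p under 0.05, for which no share of all genes was counted, 4 were higher and 0 lower. Voom with the size factors called 2 higher and 0 lower, beside 421 higher and 472 lower of all 11468 tested genes. For 6 of all 8 members every KO library lay above every CON library, which held for 15.3% of the 19225 genes with reads. Fos reached the filter through its KO values, since its CON mean alone lay under it. The same holds for Ptgs2, which had no CON read, and for Dusp10, Dusp4, Egr1, Nr4a1, Ccl2 and Maff below. Such genes can be tested only if they are high in KO, and the counts and medians of their lists include them. All log2 differences given here are KO minus CON after variance stabilisation, so genes with few reads have compressed differences, and the ratios are of mean normalised reads.

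**Figure D1:**
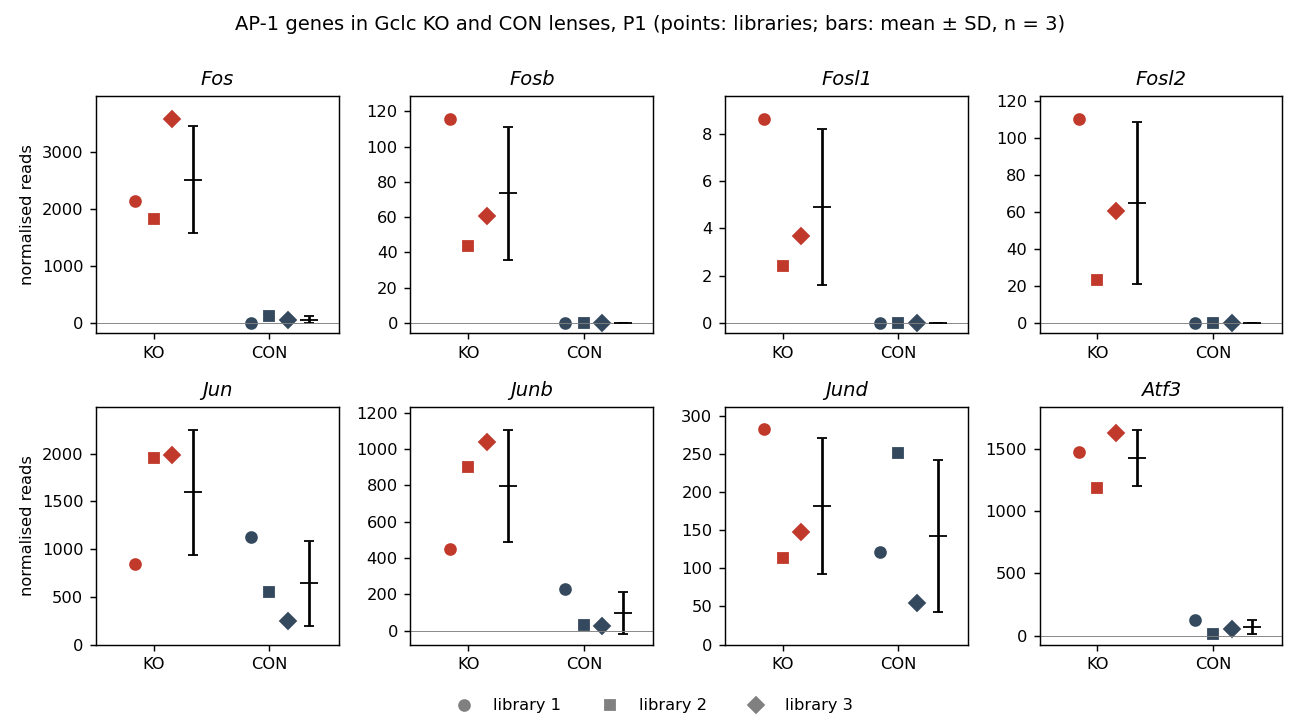
Normalised reads (linear axes) of each of the 8 AP-1 genes in each library, KO left and CON right. Points are libraries, and black bars show mean ± SD over the 3 libraries of a group. KO lies wholly above CON in 6 panels, and the groups overlap for Jun and Jund.

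Fos, the founding partner of Jun proteins, had 2137, 1817 and 3581 normalised reads in KO, against 0, 119.6 and 38.3 in CON. The lowest KO library was far above the highest CON library, and CON 1, with 43384443 reads in genes, held no Fos read at all, which allows up to 3.17 normalised reads there. Means were 2512 ± 939.8 in KO and 52.6 ± 61.1 in CON (SD, n = 3 each), a ratio of 47.7. The log2 difference was 4.001 (SE 0.39, limma adjusted p = 0.000181), the 11th largest of the 11468 tested genes. It stayed between 3.59 and 4.37 whichever library was left out (adjusted p up to 0.00118).

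Fosb, which encodes a close relative of Fos best known from neurons under repeated stimulation, had 115.8, 43.9 and 60.8 normalised reads in KO and no read in CON. Against a floor of 3 reads over the CON libraries together (1.54 normalised reads), its KO mean of 73.5 ± 37.6 was at least 47.6-fold higher. Fosl2, which encodes FRA-2, a Fos protein without the strong activation domain of Fos, had 110.6, 23.4 and 60.8 normalised reads in KO and none in CON, so that its KO mean was at least 42.1-fold higher. Fosl1, which encodes FRA-1 and is itself a target of AP-1 in many cells, had 15, 4 and 7 reads in KO (8.64, 2.40 and 3.70 normalised reads) and none in CON, a mean at least 3.18-fold higher. These 3 genes lay above CON in all 3 KO libraries at low levels, and reads in every KO library with none in CON occurred in 2.70% of the genes with reads. In the fit without a filter, Fosb (log2 difference 1.23, SE 0.20, adjusted p = 0.0109) and Fosl2 (1.13, SE 0.22, adjusted p = 0.0190) passed, and Fosl1 (0.32, SE 0.11, adjusted p = 0.130) did not. In that fit 5 of the 8 members were higher and 0 lower, beside 4.66% of genes higher and 1.87% lower. Fosl1 shares 1163 of its 1864 exon bases with Ccdc85b, and without strand their shared reads cannot be told apart. Ccdc85b had 156, 214 and 88 reads in KO, against 599, 157 and 90 in CON. Floors cover counting error only, since reads carry no molecular identifiers, and CON 2 was so shallow that 3 reads there stand for 9.44 normalised reads.

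Jun, the central partner of the dimer, had 841, 1960.4 and 1985 normalised reads in KO, against 1125, 554 and 242 in CON. KO 2 and KO 3 lay above every CON library, whereas KO 1 lay below CON 1, so the groups overlapped. Means were 1596 ± 653 in KO and 640.4 ± 448 in CON (SD, n = 3 each). The log2 difference of 1.21 (SE 0.41) did not pass (limma adjusted p = 0.0826), but it passed without CON 1 (1.63, adjusted p = 0.0185) and without KO 1 (1.57, adjusted p = 0.0490). Junb, which encodes a Jun protein that is a weaker activator and often restrains Jun, had 447, 899 and 1040.2 normalised reads in KO, against 228, 31.5 and 26.55 in CON. All KO libraries lay above all CON libraries, with CON 1 the highest CON library and KO 1 the lowest KO library, as for Jun. Means were 795 ± 310.0 in KO and 95.3 ± 115 in CON (SD, n = 3 each), a ratio of 8.34. The log2 difference was 2.12 (SE 0.39, limma adjusted p = 0.00585). The Junb call held whichever library was left out (adjusted p up to 0.0307) and was lost with voom on recovered reads (adjusted p = 0.0737 with the size factors and 0.0926 with reads outside crystallins as library size).

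Jund, the most evenly expressed Jun gene in most tissues, had 283, 114 and 149 normalised reads in KO, against 121, 252 and 54.6 in CON. The highest KO library was KO 1 and the highest CON library CON 2, and the groups overlapped. Means were 182 ± 89.1 in KO and 143 ± 100.3 in CON (SD, n = 3 each), with a log2 difference of 0.24 (SE 0.33, limma adjusted p = 0.703). The value changed sign without CON 3 (-0.03), and this spread does not allow a statement that Jund was equal in both groups. All 3 Jun genes overlap a gene on the opposite strand in GENCODE M21, and the labels do not say that counting used strand, so reads of the shared bases cannot be told apart. Jun shares 232 exon bases with Junos and Jund shares 877 with Gm11175. Junb shares 173 exon bases with Prdx2, which encodes a peroxiredoxin and had 37132, 29566 and 35474 reads in KO, against 15045, 7883 and 17277 in CON, far more than Junb. None of these 173 bases lies in the protein-coding transcript of Junb, and which transcripts were counted is not given in the sources used here.

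Atf3, which encodes a stress-induced member of the ATF family that pairs with Jun proteins and often represses its targets, had 1475.5, 1184 and 1627 normalised reads in KO, against 127, 15.7 and 56.0 in CON. The KO libraries were close to each other and lay above every CON library. Means were 1429 ± 225 in KO and 66.2 ± 56.2 in CON (SD, n = 3 each), a ratio of 21.6. The log2 difference was 3.03 (SE 0.30, limma adjusted p = 0.000181), the 35th largest of all tested genes. It lay between 2.77 and 3.28 with each library left out in turn (adjusted p up to 0.00121). The exons of Atf3 share 0 bases with those of Gm24748, the annotated gene within its span.

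**Figure D2:**
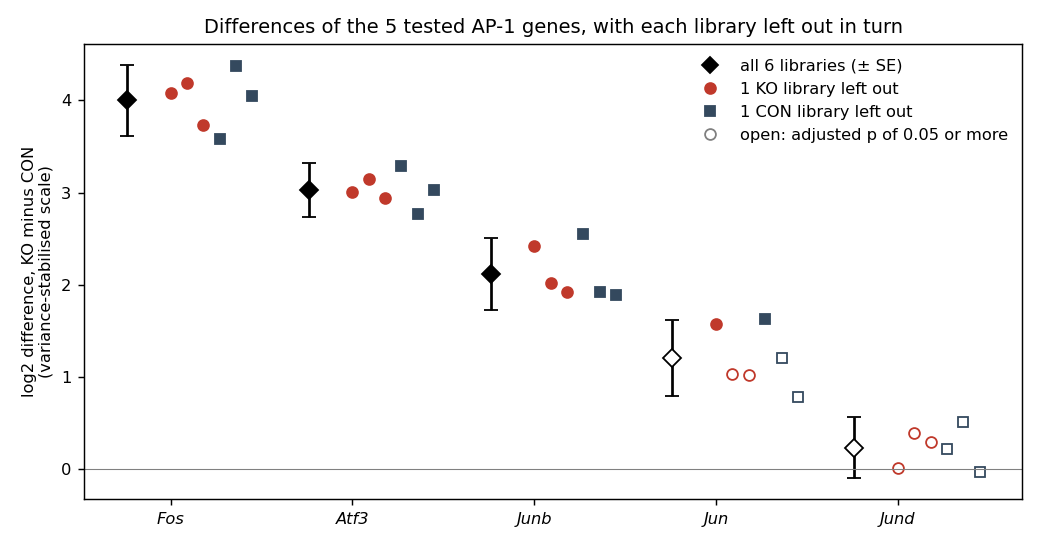
Log2 differences (KO minus CON, variance-stabilised scale) of the 5 tested AP-1 genes, with all 6 libraries (diamonds, ± SE) and with each library left out in turn. Filled marks have an adjusted p under 0.05. Fos, Atf3 and Junb are filled throughout, Jun without KO 1 and without CON 1 only, and Jund nowhere.

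Levels were compared between the members per kilobase of exon of their protein-coding transcripts (GENCODE M21). In KO, Fos came first with 1191.5 ± 446 normalised reads per kb, followed by Atf3 (663 ± 105), Jun (500.4 ± 205), Junb (439.7 ± 171), Jund (109 ± 53.4), Fosb (19.4 ± 9.94), Fosl2 (9.93 ± 6.69) and Fosl1 (2.64 ± 1.76; SD, n = 3). The ranges of Atf3, Jun and Junb overlapped from one gene to the next, as did those of Fosb, Fosl2 and Fosl1, whereas Fos lay above Atf3, Junb above Jund and Jund above Fosb in all 3 libraries of each. In CON, Jun came first with 200.8 ± 140 normalised reads per kb, followed by Jund (85.5 ± 60.1), Junb (52.7 ± 63.5), Atf3 (30.7 ± 26.1) and Fos (25.0 ± 28.97), and each of these overlapped the next. By mean level per length, Fos thus stood above the other members in KO and below Jun, Jund, Junb and Atf3 in CON.

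Summed over the 8 genes, the level per length was 2432, 2608.5 and 3768 normalised reads per kb in KO, against 610.5, 406 and 167 in CON. The Fos subfamily (Fos, Fosb, Fosl1 and Fosl2) made up 43.8%, 33.7% and 45.8% of that sum in KO, against 0%, 14.0% and 10.9% in CON. The Jun subfamily made up 28.0%, 45.2% and 34.1% in KO, against 90.4%, 84.2% and 73.6% in CON. The share of Atf3 was also higher in each KO library than in any CON library, with 28.2%, 21.1% and 20.1% in KO, against 9.63%, 1.80% and 15.5% in CON. These shares follow from the levels above and are given without a test. They describe transcripts, since the files hold no protein data and the abundance of AP-1 dimers was not measured.

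**Figure D3:**
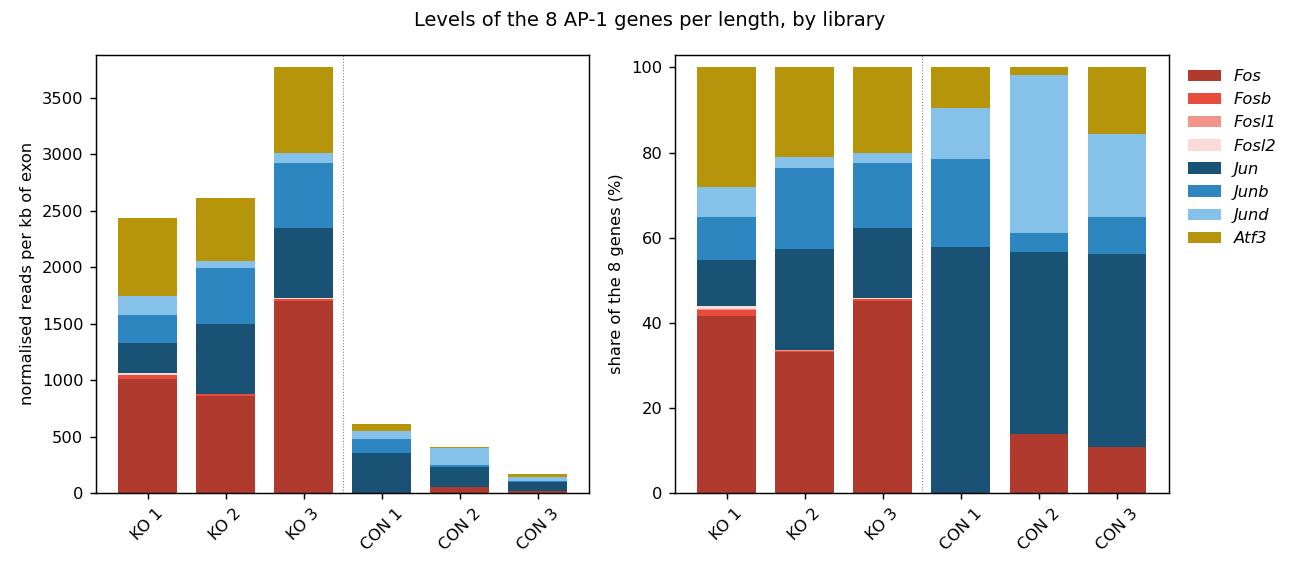
Left, normalised reads per kb of exon of the 8 AP-1 genes stacked by library. Right, the same as a share of the 8 genes (%). KO libraries are taller (2432 to 3768 against 167 to 610.5 in CON), and the red Fos subfamily takes 33.7% to 45.8% of them, against 0% to 14.0% in CON.

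The members did not all vary together within a group. Among the KO libraries, KO 1 was the lowest for Jun and Junb and the highest for Fosb, Fosl1, Fosl2 and Jund, while KO 3 was the highest for Fos, Jun, Junb and Atf3. Among the CON libraries, CON 1 was the highest for Jun, Junb and Atf3 and had no Fos read, and CON 2 was the highest for Fos and Jund. The likeness of 2 genes was measured as the root mean square distance of their centred log2 values over the 6 libraries. Jun and Junb were the closest pair of tested members (0.514), followed by Junb and Atf3 (0.611), Jun and Jund (0.880) and Fos and Atf3 (0.913), and Fos and Jund were the farthest apart (1.96).

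Among all named and not sex-linked tested genes, those close to Fos included S100a10 (0.491) and Wdr72 (0.495). S100a10 had 3469, 5432 and 5838 normalised reads in KO, against 225, 485 and 280.25 in CON. The 3 closest to Atf3 were the inositol transporter gene Slc5a3 (0.236), the stress cytokine gene Gdf15 (0.288) and the immediate early gene Egr1 (0.295). The 3 closest to Junb were Uap1l1 (0.171), the p53 target Ccng1 (0.209) and the glycine transporter gene Slc6a9 (0.210). Uap1l1 had 873, 1817 and 1403 normalised reads in KO, against 527, 135 and 117 in CON, with KO 1 and CON 1 nearest to each other as for Junb. Jun was followed most closely by Slc4a2 (0.181), Slc25a29 (0.207) and Exoc6b (0.228), and genes close to Jund included Cln6 (0.0993) and Pou4f1. The distances depend on the size of a gene's differences as well as on their pattern, and are given as a description.

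Of 26 tested genes of the MAP kinase cascades, 1 rose, 2 fell and 23 did not pass (median log2 difference 0.03, the same as the 0.03 of all tested genes), beside 6.91% of all tested genes higher and 4.39% lower. The p38 delta gene Mapk13 rose (314 ± 39.7 in KO and 95.1 ± 70.2 in CON; limma adjusted p = 0.0407). Map2k2, which encodes the ERK kinase MEK2, fell (815 ± 4.74 in KO and 2303 ± 1156 in CON; -1.21, adjusted p = 0.0343), as did Map3k5, which encodes the stress kinase ASK1 (-0.86, adjusted p = 0.0464). Each of these 3 calls was lost in 4 or 5 of the 6 fits with a library left out (adjusted p up to 0.219). Mapk8, Mapk9 and Mapk10 encode the JNK kinases that phosphorylate Jun and are named for that role after their values were seen. Their log2 differences were 0.15, 0.37 and -0.33 (limma adjusted p = 0.827, 0.546 and 0.482). Of 4 tested genes of SRF and its cofactors, 1 rose and 0 fell (median 0.61). It was the ternary complex factor gene Elk3, with 604, 474 and 472 normalised reads in KO, against 120.3, 169.9 and 144.6 in CON (log2 difference 1.20, SE 0.24, adjusted p = 0.00963). Srf itself had 40.8 ± 5.75 normalised reads in KO and 54.2 ± 13.4 in CON (-0.13, adjusted p = 0.779).

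Other basic leucine zipper genes whose proteins can pair with Fos, Jun or ATF3 went both ways, with 2 of 11 tested higher, 1 lower and 8 not passing (median log2 difference 0.26). Over all tested genes, 6.91% were higher and 4.39% lower. Maff passed the filter through its KO values, and the count and median include it. Maff, a small Maf gene, had 252 ± 83.2 normalised reads in KO and 36.2 ± 29.7 in CON (1.35, adjusted p = 0.0158). Ddit3, which encodes the stress factor CHOP, had 929.5 ± 282 in KO and 317 ± 76.2 in CON (1.18, adjusted p = 0.0177). Maf, a main activator of crystallin genes, fell (7937 ± 1994 in KO and 17994 ± 3442 in CON; -1.17, adjusted p = 0.00856). The calls of Maff and Ddit3 needed both KO 2 and KO 3 (adjusted p as high as 0.0992 when either was left out), and that of Maf needed KO 2 (0.0527 when left out). Maff also lost its call with log2 of normalised reads plus 1 and with voom using size factors or reads outside crystallins (adjusted p up to 0.128), and Maf with voom and total reads (0.104).

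Genes that end the AP-1 response were higher in part. Of 7 tested MAP kinase phosphatases, 3 rose and 0 fell (median log2 difference 0.66), beside 6.91% of all tested genes higher and 4.39% lower. Dusp4 and Dusp10 passed the filter through their KO values, and the count and median include them. Dusp6, which removes phosphate from ERK, had 4671, 6482 and 6654 normalised reads in KO, against 537, 818 and 243 in CON (3.20, SE 0.31, adjusted p = 0.000181). Dusp4 (684 ± 213 in KO and 34.6 ± 32.3 in CON; 2.39, adjusted p = 0.000656) and Dusp10, a phosphatase of JNK and p38 (322 ± 216 in KO and 2.098 ± 3.63 in CON; 2.19, adjusted p = 0.00206), also rose. The early gene Dusp1, named for its role in the same feedback after its value was seen, did not pass (1705 ± 239.7 in KO and 1342 ± 471 in CON; adjusted p = 0.435). Of 10 tested genes of AP-1 mRNA decay and protein turnover, 3 rose and 0 fell (median 0.30), beside the same shares of all tested genes. Zfp36, which encodes tristetraprolin, a protein that destabilises mRNAs with AU-rich elements such as that of Fos, had 2144 ± 563 normalised reads in KO and 579.6 ± 305 in CON (1.70, adjusted p = 0.0069). Zfp36l1 (1.49, adjusted p = 0.0126) and the ubiquitin ligase gene Itch (0.87, adjusted p = 0.0378) also rose. Itch lost its call without KO 1, KO 2, KO 3, CON 2 or CON 3 (adjusted p up to 0.190). Zfp36l1 lost its call without KO 2 (0.0581). Thus 1 of the 10 rose without KO 2, where 357 of all 11468 tested genes were higher. The Dusp10 call was lost with voom using size factors or reads outside crystallins (adjusted p up to 0.0980) and held with voom and total reads.

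Of 30 genes known from other tissues as AP-1 targets, 17 were tested, of which 11 rose, 0 fell and 6 did not pass, beside 6.91% of all tested genes higher and 4.39% lower. Their median log2 difference was 1.21, also with the gene without CON reads set at its lower bound. That gene was Ptgs2, which encodes the inducible cyclooxygenase, with 597, 807 and 668 normalised reads in KO and none in CON. Its KO mean was at least 447-fold higher (limma adjusted p = 3.2e-05), and it passed the filter through its KO values alone. Ccl2 also passed through its KO values, and the count and median of the list include both genes. The chemokine gene Ccl2 had 4143, 1399 and 1115 normalised reads in KO, against 20.1, 0 and 78.2 in CON (log2 difference 3.85, adjusted p = 0.00048), and lost its call with voom on recovered reads (adjusted p up to 0.193). The metallothionein gene Mt1 had 1763 ± 277 in KO and 361 ± 123 in CON (1.90, adjusted p = 0.00103). The number of these targets that rose was 7 without KO 2, where 357 of all 11468 tested genes were higher. At an unadjusted p under 0.05, for which no share of all genes was counted, 1 target was lower. Many of the targets are also expressed by macrophages or induced by other factors.

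Of 12 tested immediate early genes outside the AP-1 family, 9 rose and 0 fell (median log2 difference 1.52), beside 6.91% of all tested genes higher and 4.39% lower. Egr1 and Nr4a1 passed the filter through their KO values, and the count and median include them. Egr1 had 833, 683 and 891 normalised reads in KO, against 72.8, 18.9 and 5.90 in CON (2.66, SE 0.29, adjusted p = 0.000293). Nr4a1 (3.55, SE 0.41, adjusted p = 0.000476) and Ier3 (1.71, SE 0.25, adjusted p = 0.00187) also rose, and the Nr4a1 call was lost with voom on recovered reads (adjusted p up to 0.192). The number of these genes that rose was 6 without KO 1, where 502 of all 11468 tested genes were higher.

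**Figure D4:**
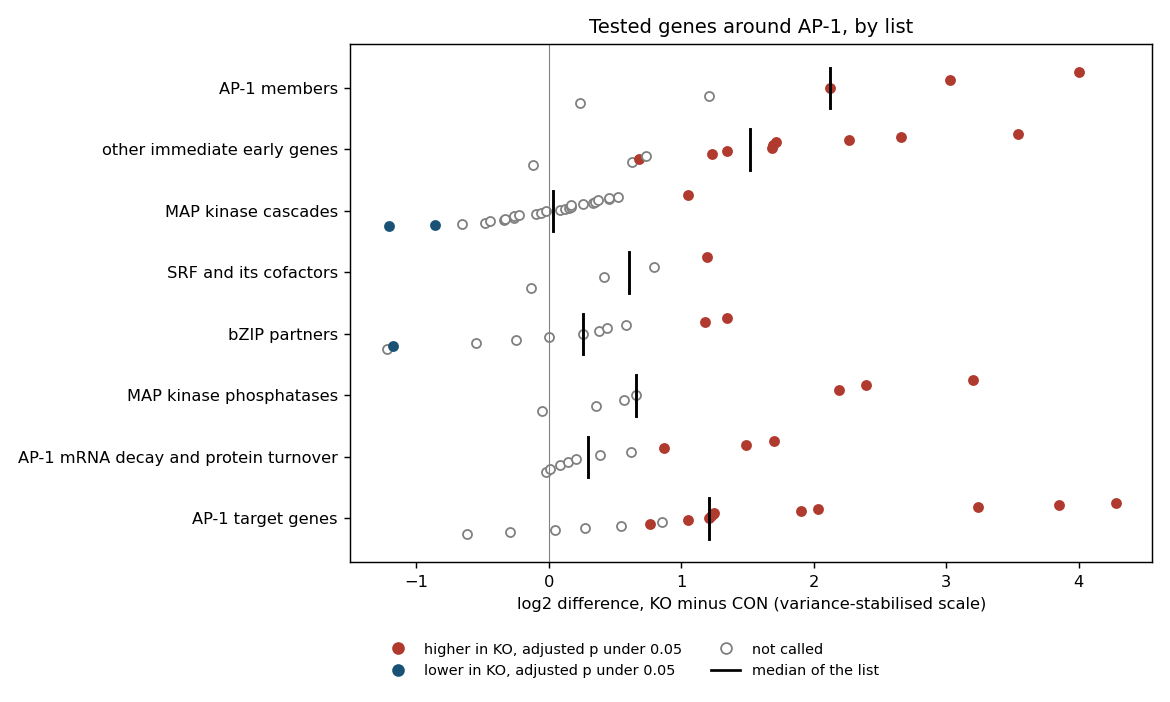
Log2 differences (KO minus CON, variance-stabilised scale) of the tested AP-1 genes and of 7 lists of genes around AP-1. Each point is a gene, filled where the adjusted p is under 0.05, and black lines mark list medians. The MAP kinase cascades lie around 0 (median 0.03), while the median is 1.52 for other immediate early genes and 1.21 for AP-1 targets. The medians of early genes and targets include genes that passed the filter through their KO values.

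Markers of macrophages, cells that also express AP-1 genes, were also higher in KO. Of 19 tested macrophage markers, 14 rose and 0 fell (median log2 difference 1.599), beside 6.91% of all tested genes higher and 4.39% lower. These shares of all tested genes stand beside the limma counts of every cell type below. For counts at an unadjusted p, no share of all genes was counted. The macrophage markers summed to 32778, 15968 and 9452 normalised reads in KO, against 3673, 2861 and 5217 in CON. With voom and size factors 5 of the 19 rose, beside 421 of all 11468 tested genes. None of the 20 listed macrophage markers was without reads in all libraries. The defining marker Adgre1, which encodes F4/80, had 1771, 465 and 329 normalised reads in KO, against 46.4, 0 and 124 in CON. The macrophage sum was highest in KO 1 and, of the KO libraries, lowest in KO 3. Fosb, Fosl1, Fosl2 and Jund were likewise highest in KO 1 but lowest in KO 2, whereas Fos, Atf3, Jun and Junb were highest in KO 3. Neutrophil markers were low, with 0 of 2 tested called, sums from 222 to 445 in KO and from 116 to 147.5 in CON, and no read of Ly6g, Mpo or Elane (unadjusted p under 0.05 for 1, higher, and 0 calls with voom). Of 10 endothelial markers, 0 were called, and their sums overlapped (1811 to 4975 in KO and 3535 to 4195 in CON), with 2 lower at an unadjusted p under 0.05 and 0 called with voom. Pigment cell markers (2 of 8 higher, sums from 12747 to 20205 in KO and from 9715 to 12175 in CON) and retinal neuron markers (1 of 7 higher, sums from 3556 to 5064 in KO and from 1609 to 2722 in CON) were higher in part. Lens fibre markers (11 of 13 lower) and crystallins (10 of 16 lower) fell, and lens epithelium markers went both ways (2 of 9 higher and 1 lower). Of 4 tested red cell markers 0 were higher and 1 lower. Of 11 mesenchyme and pericyte markers 3 were tested, with 0 higher and 1 lower (median log2 difference -0.563). The lower one was Pdgfra (-1.40, limma adjusted p = 0.00616). Every KO library lay below every CON library for Pdgfra and for Col1a2 (62.2, 58.3 and 103 normalised reads in KO, against 146, 145 and 206 in CON). The untested Col1a1 (43.2, 90.8 and 81.9 normalised reads in KO, against 23.2, 0 and 0 in CON) and Cspg4 (38.6, 34.9 and 25.4 in KO, against 1.056, 18.9 and 8.85 in CON) lay higher in every KO library than in any CON library. For the rest of the list the groups overlapped. The part of these cell types in the AP-1 values was not tested.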

How the data were processed

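Per the labels' protocols, total RNA was extracted from lenses kept in RNAlater and made into libraries with a NEBNext kit for low input. The tools and build named in the submitters' processing notes are Trimmomatic, HISAT2 2.1.0, featureCounts 1.6.4, DESeq2 (version given as 2.11.0.6) and mm9. Whether counting used strand or read pairs is not given in the sources used here. The deposited table holds log2 values after the authors' variance-stabilising transformation (6.504 for a gene without reads). The transformation was inverted, and 100% of values lay within 0.1 of a whole read at size factors equal to recomputed median-of-ratios factors. Even counts made up from 51.5% to 55.1% of genes with 1 to 100 reads, so both mates of some pairs may have been counted. Of 27179 identifiers, 25275 matched a RefSeq symbol (GRCm38.p6, used for names and promoter sequences only).

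The comparison of KO with CON used lmFit and eBayes with a trend and no covariate (limma 3.58.1, R 4.3.3). Genes entered where their mean exceeded the lowest value by 1 unit or more, with two-sided p-values adjusted by the Benjamini-Hochberg method over all tested genes and calls at 0.05. The fit was tested on simulated data. The AP-1 members, the 17 gene lists, the tests and the naming rule were chosen with earlier results of these data known. The rule named the 8 members, Gclc, up to 3 called genes with the smallest p per direction of each of 7 pathway lists, and the 3 closest genes of each tested member, of which some are not reported here. Sequences are from RefSeq. Exon lengths are from GENCODE M21. Alternatives were another or no filter, equal medians, quantile normalisation, a replicate block, each library left out, voom with 3 library sizes, weights per library, eBayes with no trend, and log2 of normalised reads after adding 1.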

Additional observations from a re-analysis of the deposited data

How the results depend on the processing

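Depth limits what can be said of Fosb, Fosl1, Fosl2 and Fos in CON, where 3 reads stand for 3.17, 9.44 and 4.42 normalised reads in CON 1 to 3, and 3 libraries per group limit all tests. Over 17 alternative fits, Fos and Atf3 kept their calls wherever they were tested, and Jund was called in none. Where results changed, the cause was not tested, except that the filter of 3 units tests 5010 genes and left 0 members higher in KO since it kept Jun alone of the 8, and the fit without a filter tested 19225 genes and called 5 members higher.

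Jun was called higher with voom and total reads (2.28, adjusted p = 0.0426), where the median of all genes was 0.86, and with library weights (1.57, adjusted p = 0.00636), and ranged from 0.79 to 1.63 with a library left out. Junb was not called with voom and size factors (3.24) or reads outside crystallins (3.52). Jund ranged from -0.0278 (without CON 3, where its sign changed) to 0.52 with a library left out. The share of the Fos subfamily differed by 32.8 percentage points (KO minus CON), by 32.4 without length scaling, and no direction changed. Gclc was not called with no filter (-1.01, adjusted p = 0.0752), log2 of normalised reads plus 1 (-2.25), or voom with size factors (-2.16), total reads (-1.45) or reads outside crystallins (-2.004), and ranged from -1.13 to -0.83 with a library left out.

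Equal replicate numbers did not deviate together (correlations of -0.364, -0.128 and -0.14), and no library correlated best with its own number. With the number as a replicate block, Fos (4.001, adjusted p = 9.9e-06), Junb and Atf3 stayed called, Gclc was not (-1.01, adjusted p = 0.0643), the MAP kinase cascades had 1 call, and 605 genes were higher and 309 (2.69%) lower.

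The numbers of genes called in a list were as follows. The bZIP partners had 3, against 1 with the filter of 3 units, 5 with voom and total reads, and 0 to 4 with a library left out. The MAP kinase cascades had 3, against 0 with no filter or log2 of normalised reads plus 1, 1 with the filter of 3 units or voom with reads outside crystallins, 6 with voom and total reads, and 0 to 2 with a library left out. SRF and its cofactors had 1, against 0 with the filter of 3 units, 2 with voom and total reads or library weights, and 1 to 2 with a library left out. The phosphatases had 3 and 1 with the filter of 3 units. The decay and turnover genes had 3 and 1 to 4 with a library left out. The AP-1 targets had 11, against 3 with the filter of 3 units, 7 with voom and size factors or reads outside crystallins, and 7 to 11 with a library left out. The other immediate early genes had 9, against 2 with the filter of 3 units, 4 with voom and size factors, and 5 with voom and reads outside crystallins. Of all genes 793 were higher, against 340 with the filter of 3 units, 421 with voom and size factors, 3314 with voom and total reads, 1219 with library weights, and 357 to 1085 with a library left out. Of the tested genes 4.39% (504 genes) were lower, against 1.87% with no filter, 9.22% with the filter of 3 units, 0.741% (85 genes) with voom and total reads, 2.55% (292 genes) with voom and reads outside crystallins, 8.14% (933 genes) with library weights, and 1.53% to 7.48% with a library left out. With equal library medians 643 genes were higher and 717 lower.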

Other observations

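Several genes around AP-1 stayed below the filter and were read mainly in KO. They were picked after their values were seen and have no test, and values per library are in the order of the library numbers. Plaur, which encodes the urokinase receptor, had 258, 151 and 95.1 normalised reads in KO and none in CON. The collagenase gene Mmp13 had 224, 11.4 and 25.9 in KO and none in CON, with KO 1 far above the others. Batf3, a basic leucine zipper gene known from dendritic cells, had 164.7, 67.3 and 38.6 in KO, against 25.3, 12.6 and 13.3 in CON, with the order of the KO libraries that the macrophage marker sum also had. The early gene Egr2 had 81.2, 222 and 47.0 in KO and none in CON.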
